A study of Mus musculus with 8 samples.

Results

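Scavenger and endocytic receptors of the mouse liver were followed through the cell types of a single-cell RNA-seq atlas. The set holds 10 genes of the 46517 in the count table, listed by name with no cutoff on their values, though with earlier results of these data known: the stabilins *Stab1* and *Stab2*, the hyaluronan receptor *Lyve1*, the lectins *Mrc1* and *Clec4g*, the Fc receptor *Fcgr2b*, the class A scavenger receptors *Marco* and *Msr1*, and the class B receptors *Cd36* and *Scarb1*. All 10 were found and all 10 passed the filter on low counts in every comparison.

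Scavenger receptors bind modified lipoproteins, matrix fragments, microbial surfaces and dying cells, and carry them into endosomes and lysosomes. In the liver the sinusoidal endothelium and the Kupffer cells, the resident macrophages of the sinusoid, share this clearance of the blood. The stabilins are best known from the endothelium and MARCO from macrophages, while the mannose receptor MRC1 is known from both.

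Livers of adult C57BL6/J mice and of heterozygous reporter strains (*Pdgfrb* GFP, *Pdgfra* H2bGFP, *Cspg4* dsRED, *Acta2* GFP, *Cldn5* GFP) were dissociated without perfusion, and single cells were sorted into 384-well plates for Smart-seq2, which reads whole transcripts of each cell without molecular identifiers. Endothelial cells were sorted by CD31 and/or VE-Cadherin or by the *Cldn5* reporter, macrophages by CD68, cholangiocytes by EPCAM, mesenchymal cells by reporters or PDGFRα, and hepatocytes without a marker. The 3491 cells form 8 pools, a male and a female pool for each of the mesenchymal, endothelial, immune and parenchymal classes, and no treatment was compared. The number of mice behind each pool is not given in the sources used here, so a p-value measures only the spread between a male and a female pool. In that spread sex and plate cannot be told apart because every plate held a single sex. The clusters and cell type names are the authors' own and were made from the expression of these same cells, with *Mrc1* among the genes used to name sinusoidal cells and *Stab2* reported by the study as a gene of these cells. Differences between clusters are therefore not independent of the receptors described here.

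Sinusoidal endothelium was taken as the authors' clusters e3, e5, e6 and e8, with 419 male and 235 female cells, and Kupffer cells as clusters i1, i3, i6 and i7, with 123 male and 357 female cells. The pools differed in makeup: e3 gave 54.9% of the male but 2.55% of the female sinusoidal cells, and i1 gave 87.8% of the male but 2.52% of the female Kupffer cells, while 77.6% of the female Kupffer cells came from a single plate. The median cell held 233696 counts, the shallowest 50042 and the deepest 1143895. The labels were read beside marker lists of 12 Kupffer and 11 general endothelial genes. The study itself used genes of these lists to name the cells, among them *Clec4f*, *Folr2*, *Vsig4* and *Pecam1*. The lists are therefore a description and no independent check of the labels. The Kupffer list summed to 38331 and 32719 CPM (counts scaled to library size) in male and female Kupffer cells against 489 and 1087 CPM in sinusoidal cells, and the endothelial list to 15762 and 17971 CPM in sinusoidal cells against 274 and 245 CPM in Kupffer cells, with no gene of either list at 0. Whether RNA carried over between wells contributes to the lower values was not tested.

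The promoters of 7 of the 10 receptors are in the RefSeq table used here (GRCm38.p6, from 250 bases before to 50 bases after the start). Those of 4 receptors are shown because they span the pattern described below, from genes high in sinusoidal cells (*Stab1*, *Stab2*) through *Mrc1*, high in both cell types, to *Marco*, high in Kupffer cells. They are chr14:31168592-31168891, chr10:87007893-87008192, chr2:14229164-14229463 and chr1:120504975-120505274, on the plus strand for *Mrc1* and on the minus strand for the others. Capitals mark the letters GAGGAA on either strand, the core bound by the myeloid factor PU.1.
Stab1: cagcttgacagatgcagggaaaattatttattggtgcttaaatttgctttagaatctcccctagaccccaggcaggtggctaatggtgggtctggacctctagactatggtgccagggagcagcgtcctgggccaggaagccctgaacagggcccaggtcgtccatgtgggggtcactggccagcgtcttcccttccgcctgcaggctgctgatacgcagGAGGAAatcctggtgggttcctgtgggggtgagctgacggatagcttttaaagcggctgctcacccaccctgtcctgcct
Stab2: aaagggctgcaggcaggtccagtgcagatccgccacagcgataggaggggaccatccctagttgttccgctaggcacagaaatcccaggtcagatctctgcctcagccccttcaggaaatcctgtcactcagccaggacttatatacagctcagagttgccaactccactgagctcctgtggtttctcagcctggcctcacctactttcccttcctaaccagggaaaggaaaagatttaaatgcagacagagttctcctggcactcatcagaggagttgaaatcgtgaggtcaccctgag
Mrc1: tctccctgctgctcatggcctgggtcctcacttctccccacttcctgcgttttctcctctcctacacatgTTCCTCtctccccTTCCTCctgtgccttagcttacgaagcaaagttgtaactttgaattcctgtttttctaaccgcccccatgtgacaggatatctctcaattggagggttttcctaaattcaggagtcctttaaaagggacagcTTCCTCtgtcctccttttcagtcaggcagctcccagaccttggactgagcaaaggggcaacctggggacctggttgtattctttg
Marco: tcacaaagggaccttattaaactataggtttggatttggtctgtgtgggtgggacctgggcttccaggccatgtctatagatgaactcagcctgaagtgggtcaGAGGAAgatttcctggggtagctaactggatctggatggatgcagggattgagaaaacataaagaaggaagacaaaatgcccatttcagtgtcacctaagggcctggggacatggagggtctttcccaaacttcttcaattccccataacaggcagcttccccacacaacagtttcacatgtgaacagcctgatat
GAGGAA is present once in the *Stab1* window, at -30 from the start, and once in the *Marco* window, at -146. The *Mrc1* window holds it 3 times, all on the reverse strand, at -180, -167 and -35. It is absent from the windows of *Stab2*, *Fcgr2b*, *Clec4g* and *Cd36*. These letters occur in 28.3% of all 32851 promoter windows of this length, so a match is a description of the sequence and not a binding site. None of the 7 windows holds AGATAA, the letters of a GATA motif (11.2% of all windows), TGANTCA of AP-1 (7.81%) or TGCTGAC of MAF (4.67%), on either strand.

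Sinusoidal cells carried far more of the stabilins, *Lyve1*, *Fcgr2b* and *Clec4g* than Kupffer cells did, *Marco* lay on the Kupffer side, and *Mrc1*, *Msr1*, *Cd36* and *Scarb1* were present in both. Counts were summed over the cells of each group and pool and tested in one fit over all endothelial and immune groups with the quasi-likelihood test of edgeR, adjusted after Benjamini-Hochberg, and a gene was called where the adjusted p was under 0.05 and the log2 difference 1 or more in size. Of the 10 receptors 5 were called, all higher in sinusoidal cells. Over all 22162 genes tested, 2.69% were called and 1.92% were called higher (425 genes higher and 172 lower, against 1133 and 796 with DESeq2), and the median log2 difference was 0.12 against 2.10 for the receptors. The plot of receptor levels in 4 cell populations shows them by pool.

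**Figure D1:**
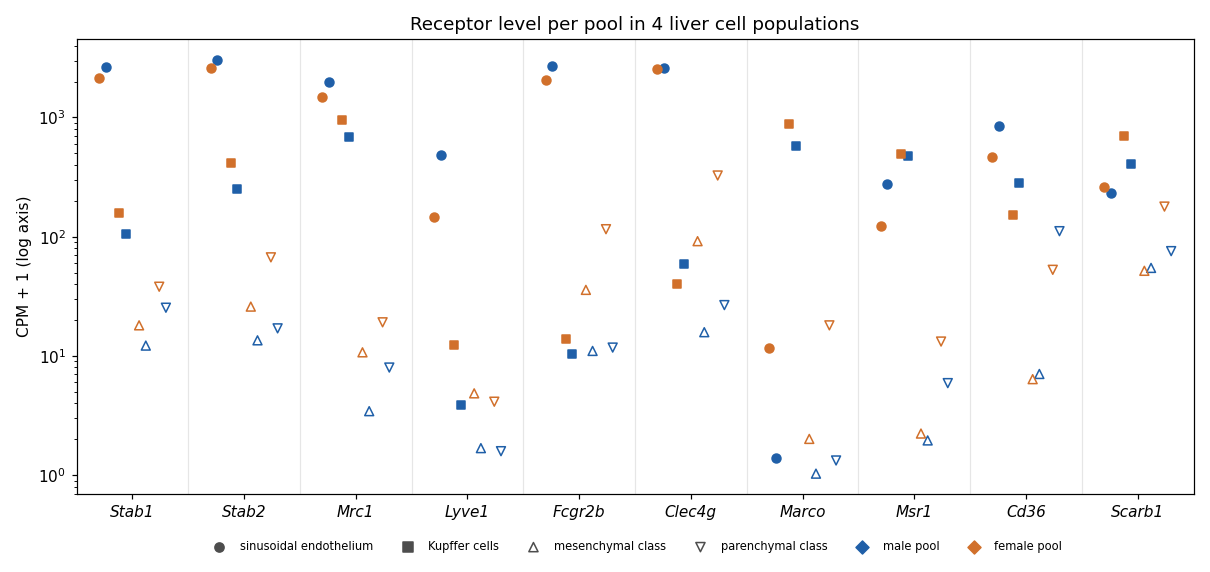
CPM + 1 (log axis) of the 10 receptors in sinusoidal endothelium, Kupffer cells, the mesenchymal class and the parenchymal class, with a point for the male and the female pool of each. *Stab1*, *Stab2*, *Lyve1*, *Fcgr2b* and *Clec4g* lie higher in both sinusoidal pools and *Marco* in both Kupffer pools, while *Mrc1* is at 1993 and 1472 CPM in sinusoidal cells against 691 and 959.7 CPM in Kupffer cells.

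Among the receptors for hyaluronan and matrix fragments, *Stab1* (GRCm38 chr14:31139013-31168641, minus strand) stood at 2666 and 2156 CPM in the male and female sinusoidal pools and at 105 and 157 CPM in Kupffer cells. *Stab2*, the main hyaluronan clearance receptor of the liver (chr10:86841198-87008025, minus strand), stood at 3059 and 2614 CPM against 250.5 and 417 CPM. The lowest sinusoidal pool of either stabilin was well above the highest Kupffer pool, with log2 differences of 3.97 (SE 0.53, adjusted p = 0.00022) for *Stab1* and 2.86 (SE 0.63, adjusted p = 0.015) for *Stab2* in edgeR's quasi-likelihood fit, Benjamini-Hochberg adjusted. The *Stab2* call was lost without any single one of the 4 pools: the adjusted p was 0.16 without the male and 0.088 without the female Kupffer pool, and 0.0999 without the male and 0.077 without the female sinusoidal pool. *Lyve1*, a hyaluronan receptor known from lymphatic endothelium (chr7:110850607-110863239, minus strand), reached 481 CPM in male but 146 CPM in female sinusoidal cells and 2.87 and 11.3 CPM in Kupffer cells, a log2 difference of 5.28 (SE 0.86, adjusted p = 0.0013). Its sinusoidal pools lay apart from each other as well as from the Kupffer pools, and they differ in cluster makeup as given above.

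*Clec4g*, the endothelial lectin LSECtin (chr8:3707064-3720651, minus strand), was the most even of the receptors between the sinusoidal pools, at 2599 and 2527 CPM against 58.4 and 39.2 CPM in Kupffer cells. *Fcgr2b*, the inhibitory Fc receptor that clears small immune complexes (chr1:170958617-170976547, minus strand), stood at 2698 and 2045 CPM against 9.40 and 12.7 CPM. The fitted differences were 7.51 on the log2 scale for *Fcgr2b* (SE 0.97, adjusted p = 0.00016) and 5.44 for *Clec4g* (SE 0.62, adjusted p = 5.3e-05), the latter within its error of that of *Lyve1*, in edgeR's quasi-likelihood fit, Benjamini-Hochberg adjusted. The exons of *Clec4g* overlap those of the antisense gene *Gm16553* over 5.93% of their bases, and 2.92% of the 50-base words of *Fcgr2b* exons also occur in its paralog *Fcgr3*, so a share of these reads cannot be assigned with certainty. *Mrc1*, the mannose receptor, which takes up glycoproteins and collagen fragments (chr2:14229392-14332057, plus strand), stood at 1993 and 1472 CPM in sinusoidal and 691 and 959.7 CPM in Kupffer cells. Its pools did not overlap, but the log2 difference of 0.83 (SE 0.60) did not pass the test (adjusted p = 0.73).

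*Marco*, a class A scavenger receptor for bacteria and particles (chr1:120474538-120505024, minus strand), gave 0.40 and 10.6 CPM in male and female sinusoidal cells and 573 and 886 CPM in Kupffer cells. The pools were far apart, yet the log2 difference of -7.28 (SE 2.08) was not called (adjusted p = 0.077, edgeR quasi-likelihood, Benjamini-Hochberg adjusted). In a fit of only the 4 sums compared it was -7.32 (SE 1.43, adjusted p = 0.012) and was called. That fit called more of all genes, 1158 higher and 1110 lower of 19618, against 425 and 172 of 22162. Other settings placed it on either side of the threshold, as given in the closing section. *Msr1*, the macrophage receptor for modified lipoprotein SR-A (chr8:39581685-39642673, minus strand), was at 275 and 122 CPM in sinusoidal cells against 476 and 493 CPM, a log2 difference of -1.54 (SE 0.75, adjusted p = 0.42). *Cd36*, the receptor for fatty acids and oxidised lipoprotein (chr5:17781690-17888801, minus strand), was at 853 and 469 CPM against 279 and 151 CPM (1.33, SE 0.62, adjusted p = 0.38). *Scarb1*, the HDL receptor SR-BI (chr5:125277087-125341094, minus strand), was at 233 and 259 CPM against 407 and 698 CPM (-1.39, SE 0.80, adjusted p = 0.55). For *Msr1*, *Cd36* and *Scarb1* the pools of the cell types did not overlap, but no difference passed the test.

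Per kilobase of exon and over both pools together, which allows levels of different genes to be set side by side, *Clec4g* led in sinusoidal cells at 1047 CPM per kb, followed by *Fcgr2b* (432), *Stab2* (334), *Mrc1* (288), *Stab1* (244), *Cd36* (206) and *Lyve1* (130). *Msr1* (36.2), *Scarb1* (28.3) and *Marco* (1.80) came last. In Kupffer cells *Marco* led at 427 CPM per kb, ahead of *Mrc1* (142), *Msr1* (77.2), *Scarb1* (75.1), *Cd36* (49.4) and *Stab2* (43.7), with *Clec4g* (17.5), *Stab1* (14.2), *Lyve1* (3.29) and *Fcgr2b* (2.08) below. Below *Marco* and *Mrc1* the Kupffer order differed between pools: *Cd36* came next after *Mrc1* in male cells (77.6 CPM per kb, beside 75.0 for *Msr1*), but in female cells (42.1) it lay below *Scarb1* (82.1), *Msr1* (77.7) and *Stab2* (47.6). In sinusoidal cells the pools differed in the order of *Msr1* and *Scarb1* alone. In each pool *Mrc1* was among the upper 4 receptors of both cell types, whereas *Marco* was the highest in one and the lowest in the other.

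On 5 plates both cell types had been sorted, with at least 5 cells of each, so that they could be compared within a plate. *Stab1*, *Stab2*, *Lyve1*, *Fcgr2b*, *Clec4g* and *Cd36* were higher in sinusoidal cells on 5 of 5 plates and *Mrc1* on 4 of 5. *Marco* was higher in Kupffer cells on 5 of 5 plates, *Scarb1* on 4 and *Msr1* on 3. The within-plate log2 ratio ranged from 3.53 to 6.97 for *Stab1*, from 2.62 to 3.91 for *Stab2* and from -7.86 to -2.50 for *Marco*. The weakest *Marco* ratio came from the plate with 5 sinusoidal and 277 Kupffer cells, where sinusoidal cells reached 155 CPM, and on the other female plate they were at 40.4 CPM. On the 3 male plates sinusoidal *Marco* was between 0 and 5.97 CPM. A fit within these plates called 6 of the 10 receptors, *Marco* among them, where 9.59% of 11499 genes were called.

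**Figure D2:**
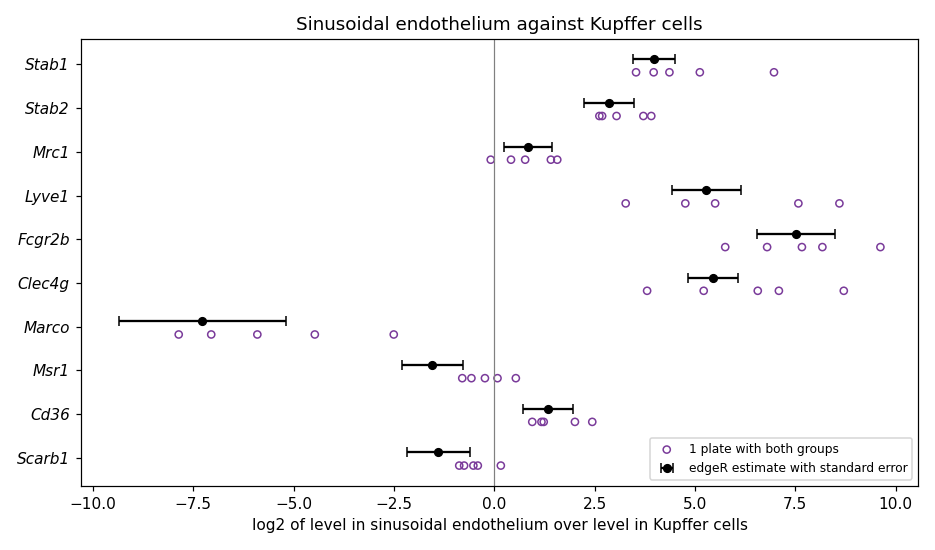
Log2 of the level in sinusoidal endothelium over that in Kupffer cells for the 10 receptors, as the edgeR estimate with its standard error (filled points) and as the ratio within each of the 5 plates that held both cell types (open circles). *Fcgr2b* lies farthest to the sinusoidal side at 7.51 and *Marco* to the Kupffer side at -7.28, and the plate values of *Stab1*, *Stab2*, *Lyve1*, *Fcgr2b*, *Clec4g* and *Cd36* all lie above 0.

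Seen cell by cell, at least 20 counts of *Clec4g* were found in 98.6% of male and 99.1% of female sinusoidal cells, of *Stab1* in 98.3% and 96.6%, of *Mrc1* in 94.99% and 91.9%, of *Fcgr2b* in 91.4% and 93.6% and of *Stab2* in 92.8% and 86.8%. These 5 shares were close in the pools. The share was 74.7% and 61.7% for *Cd36*, 37.5% and 39.1% for *Scarb1*, 45.3% and 20.9% for *Lyve1* and 36.5% and 24.3% for *Msr1*, and *Marco* was found in 0 of 419 male cells and in 2.55% of female cells.

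In Kupffer cells the pools lay far apart for 5 receptors. *Mrc1* was found in 56.9% of male and 90.2% of female cells, *Msr1* in 49.6% and 75.1%, *Scarb1* in 32.5% and 76.5%, *Stab2* in 27.6% (95% exact interval 19.96 to 36.4) and 67.5% (62.4 to 72.3), and *Marco* in 25.2% and 54.9%. *Cd36* (25.2% and 34.2%) and *Stab1* (18.7% and 30.5%) were closer, while *Clec4g* was found in 4.88% and 9.52%. *Fcgr2b* was found in 0 of 123 male cells (exact interval up to 2.95%, and 2.44% for a limit of 3 cells) and in 3.64% of female cells (1.95 to 6.15), while any count of it was found in 74.0% and 43.4%. The median male Kupffer cell held 204924 counts and the median female one 281883. Thinned to 50000 counts per cell, the share with at least 5 counts of *Stab2* was 93.3% and 87.6% in sinusoidal and 29.3% and 71.6% in Kupffer cells. In hepatocytes the share with 20 counts was 8.87% for *Scarb1*, which they are known to express, 8.37% for *Cd36*, 3.45% for both *Stab2* and *Clec4g* (1.40 to 6.98 each), 2.46% for *Mrc1*, 1.97% for *Stab1* and 0.985% for *Fcgr2b* (0.12 to 3.51) and *Msr1*, and *Lyve1* and *Marco* were found in 0 of 203 cells. The Kupffer shares of *Stab2*, *Mrc1* and *Stab1* lay above the hepatocyte level in both pools, and the Kupffer intervals of *Clec4g* (1.81 to 10.3 in male, 6.69 to 13.1 in female cells) and *Fcgr2b* overlapped it. The hepatocyte level is over both sexes and is not matched to either Kupffer pool. In the parenchymal class the share with 20 counts was 2.79% of 358 male and 35.9% of 39 female cells for *Clec4g*. For *Fcgr2b* it was 1.12% and 12.8%. Intervals cover counting error only.

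The receptors also combined differently within single cells. *Stab1*, *Stab2*, *Fcgr2b* and *Clec4g* were found together, each with at least 20 counts, in 84.7% of male and 80.4% of female sinusoidal cells, in 0 of 123 male Kupffer cells and in 4 of 357 female ones (1.12%). *Stab2* with *Mrc1* occurred in 89.5% and 81.7% of sinusoidal and in 20.3% and 63.0% of Kupffer cells. *Marco* with *Stab2* was found in 5.69% of male and 38.9% of female Kupffer cells, and *Marco* with *Scarb1* in 10.6% and 44.5%, so both pairs were mainly seen in the female pool. A sinusoidal cell carried a median of 7 (male) and 6 (female) of the 10 receptors at this limit and a Kupffer cell a median of 2 and 5.

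Kupffer cells held some counts of endothelial transcripts, so the Kupffer level as a percentage of the sinusoidal level is given for the receptors and for the marker genes. In the male and female pools the Kupffer level came to 34.7% and 65.2% of the sinusoidal level for *Mrc1*, 8.19% and 15.9% for *Stab2* and 3.93% and 7.29% for *Stab1*. It was 2.25% and 1.55% for *Clec4g*, 0.597% and 7.76% for *Lyve1* and 0.348% and 0.623% for *Fcgr2b*. Of the 11 endothelial markers, *Erg* (28.9% and 22.7%) and *Pecam1* (10.7% and 7.77%) were the highest, and the other 9 lay between 0.588% and 1.80% in the male and between 0.170% and 1.59% in the female pool. *Mrc1* lay above all 11 markers in both pools, and *Stab1* and *Stab2* above at least 9 of them. Among 7 sinusoidal markers the spread was wider. *Gatm* (37.8% and 58.4%) lay above *Stab1* and *Stab2* in both pools and above *Mrc1* in the male one, and *Dnase1l3* (4.59% and 6.39%) above *Stab1* in the male one. The other 5 lay between 0.224% and 1.87% in the male and between 0.067% and 0.808% in the female pool. The part of carried-over RNA in the Kupffer values was not tested.

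The 215 Kupffer cells with under 20 endothelial marker counts in all were then read apart from the 265 others, a split that was made after the data were seen and that also depends on the depth of a cell. Genes of endothelial cells tend to move with a split of this kind, and the values are a description. *Stab2* was at 233 and 448 CPM in the male and female cells with few endothelial counts and at 256 and 383 CPM in the others, and *Mrc1* at 777 and 1018 CPM against 664 and 898 CPM. *Stab1* was at 39.8 and 139.7 CPM against 125 and 176 CPM. *Clec4g* was at 15.1 and 12.5 CPM against 72.1 and 67.5 CPM. Both *Stab1* and *Clec4g* were thus lower in the cells with few endothelial counts in each pool. *Fcgr2b* (9.13 against 9.48 CPM in male, 3.10 against 22.9 CPM in female cells) and *Lyve1* (2.84 against 2.88 CPM and 3.58 against 19.5 CPM) were several times lower in the female pool. *Mrc1* was higher in these cells in both pools, and *Stab2* was higher in the female pool and lower in the 33 male cells. Sums of the cells with few endothelial counts against sinusoidal cells gave 5 calls among the 10 receptors, as all Kupffer cells did. Of all 21976 genes, 446 were called higher and 150 lower in that fit. Leaving out cells with endothelial counts tends to widen the difference of endothelial genes. The equal count therefore cannot show what part carried-over RNA has in the calls.

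**Figure D3:**
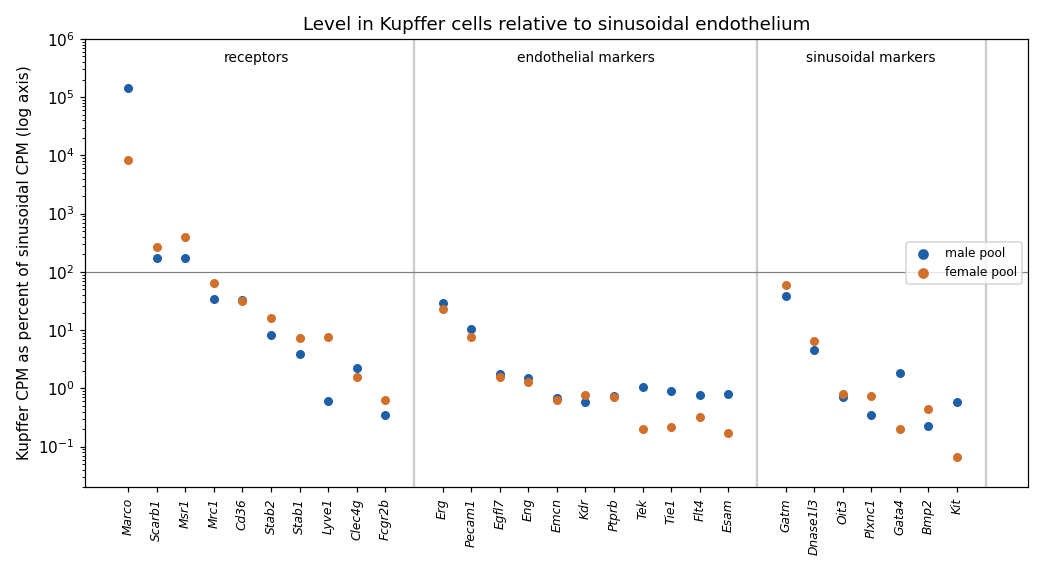
Kupffer CPM as a percentage of sinusoidal CPM (log axis) for the 10 receptors, 11 endothelial markers and 7 sinusoidal markers, with a point for the male and the female pool. *Mrc1* at 34.7% and 65.2% and *Stab2* at 8.19% and 15.9% stand above at least 9 of the 11 endothelial markers, while *Fcgr2b* at 0.348% lies below all 11 in the male pool and at 0.623% among them in the female pool.

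Along the endothelial clusters, which the study arranges from portal vein (e2) over sinusoids (e5, e8, e3 and then e6) to central vein (e7 and e1), with lymphatic cells in e4, the receptors followed several courses. *Stab2* was highest in e8, at 4548 (male) and 4317 CPM (female), was at 3367 and 3360 CPM in e5 and 3210 and 2806 CPM in e3, and was low in e1 at 20.3 and 10.2 CPM. The e8 pools lay above those of every other cluster, and the ranges of e5 and e3 were next to each other. *Stab1* was highest in e8 too (3562 and 3617 CPM) and kept more of its level at the veins, with 1241 and 893 CPM in e1 and 1215 and 729 CPM in e2, whose ranges overlapped. *Mrc1* went from 2223 and 2358 CPM in e3 to 462 and 568 CPM in e2 and 116 and 113 CPM in e1. *Clec4g* remained at 1007 and 905 CPM in e1 and 959 and 1058 CPM in e2, and *Fcgr2b* at 583 and 418 CPM in e1 and 617 and 901 CPM in e2. In the other venous clusters *Stab2* was at 317 and 318 CPM in e7 and 279 and 228 CPM in e2, so its lowest level was that of e1 and not of the central side as a whole.

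**Figure D4:**
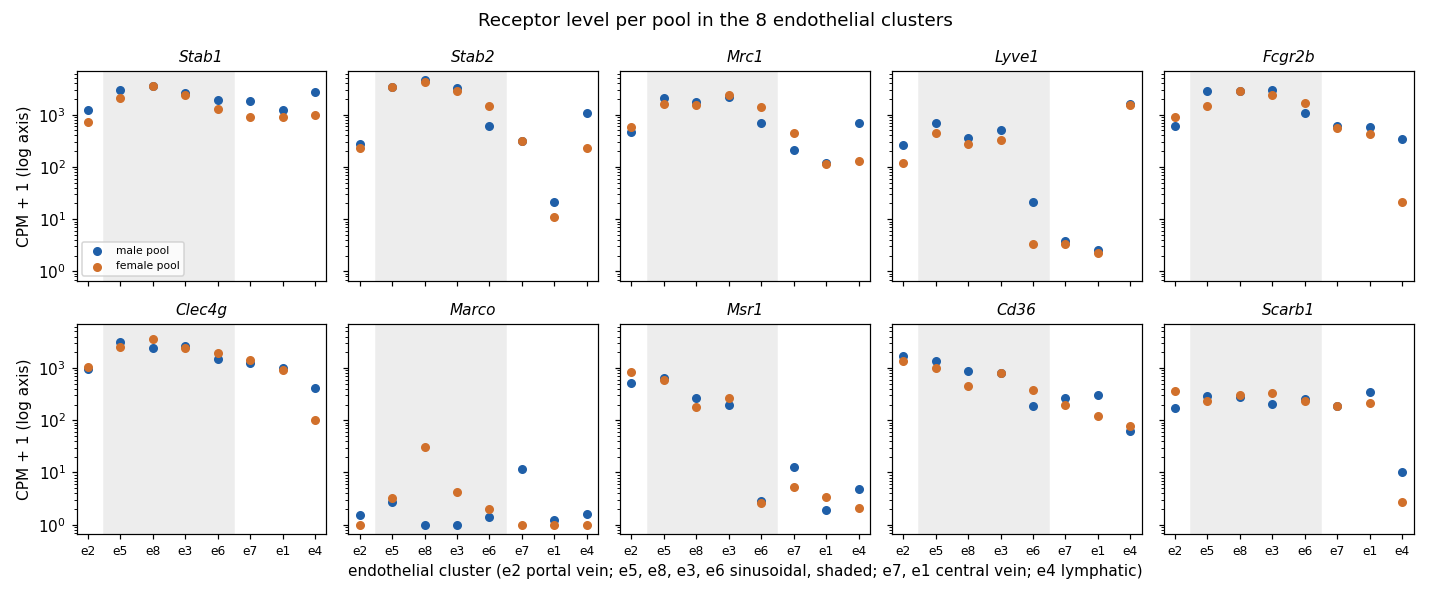
CPM of the 10 receptors (log scale) across the endothelial clusters from portal to central, with lymphatic e4 last, and a point for each pool. *Msr1* and *Lyve1* remain in e8 and e3 and drop between e3 and e6, *Stab2* is lowest in e1 and *Lyve1* is highest in e4.

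*Msr1* was highest on the portal side of this endothelium, at 505 and 831 CPM in e2 and 652 and 599 CPM in e5. Its pools were still between 175 and 267 CPM in e8 and between 196 and 267 CPM in e3. Levels were low beyond, at 1.81 and 1.61 CPM in e6, 0.87 and 2.46 CPM in e1 and 11.5 and 4.39 CPM in e7. The e2 values stand beside 476 and 493 CPM in Kupffer cells. *Lyve1* was at 699 and 454 CPM in e5, between 279 and 357 CPM in the e8 pools and between 325 and 500 CPM in the e3 pools. In e6 it was at 19.9 and 2.32 CPM. Between e5 and e6, the portal and central ends of the sinusoidal clusters, these 2 of the 10 receptors were called, against 0.0764% of 18321 genes, with log2 differences of 8.42 for *Msr1* (SE 0.94, adjusted p = 0.00074) and 5.61 for *Lyve1* (SE 0.84, adjusted p = 0.0097) in edgeR's quasi-likelihood fit, Benjamini-Hochberg adjusted. Both calls held in all 10 alternatives run. *Cd36* was higher in e5 (1347 and 1019 CPM) than in e6 (185 and 372 CPM) with an adjusted p of 0.44, and was highest in e2 at 1662 and 1387 CPM.

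Against the central vein cluster e1, 4 receptors were called higher in sinusoidal cells, where 0.0226% of all genes were called higher: *Lyve1* by 7.71 on the log2 scale (SE 0.96, adjusted p = 0.0016), *Stab2* by 7.48 (SE 0.78, adjusted p = 0.00034), *Msr1* by 6.84 (SE 0.95, adjusted p = 0.0046) and *Mrc1* by 3.85 (SE 0.67, adjusted p = 0.042), all in edgeR's quasi-likelihood fit, Benjamini-Hochberg adjusted. *Stab2* kept its call without any one of the 4 pools. The *Mrc1* call was lost without each of them (adjusted p from 0.095 to 0.68), with the replicate block (0.11) and with e7 among the sinusoidal cells (0.14), that of *Msr1* without the male (0.17) or the female e1 pool (0.065), and that of *Lyve1* without the female e1 pool (0.065). Against e7 only *Lyve1* was called (6.66, SE 0.92, adjusted p = 0.020), where 0.0271% of genes were. That call was lost without the male (0.22) or female e7 pool (0.41) and without the male sinusoidal pool (0.11). *Scarb1* differed from sinusoidal cells by -0.25 (SE 0.78) in e1 and 0.13 (SE 0.78) in e7 on the log2 scale, sinusoidal minus venous, and passed neither test.

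Against the portal vein cluster e2 none of the 10 receptors was called by edgeR, where 0.00451% of genes were. Of the receptors 7 had an unadjusted p under 0.05 with edgeR, as did 1167 of all 22162 genes. DESeq2 called 1 receptor, where it called 195 genes higher and 133 lower of 31588. *Stab2* came nearest, with a log2 difference of 3.51 (SE 0.65, adjusted p = 0.079 in edgeR's quasi-likelihood fit, Benjamini-Hochberg adjusted), from 279 and 228 CPM in e2. *Msr1* (-1.72, SE 0.75) and *Cd36* (-1.18, SE 0.62) had higher values in e2 in both pools, with adjusted p of 0.94 and 0.95, while *Scarb1* (-0.063, SE 0.78) had them in the female pool. Within e2 the authors name 14 cells PBV, the endothelium of the peribiliary vessels. In these cells *Scarb1* was at 588 and 1482 CPM and *Cd36* at 1059 and 1730 CPM, whereas the 114 portal vein cells had 123 and 167 CPM of *Scarb1*. Over both pools together, *Clec4g* was at 26.7 CPM in PBV cells, *Stab2* at 11.03, *Fcgr2b* at 10.6, *Mrc1* at 5.52, *Msr1* at 2.07 and *Lyve1* at 1.84, against 1152, 285, 878, 592, 777 and 213 CPM in the portal vein cells. With 5 male and 9 female cells, and shares of cells whose intervals for *Scarb1* ran from 28.9 to 82.3%, these values were not tested.

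The lymphatic cluster e4 was small, with 9 male and 13 female cells. It held *Lyve1* at 1632 and 1529 CPM, above every other cluster, and *Stab1* at 2772 and 1004 CPM, and the lymphatic marker list summed to 6357 and 6094 CPM there against 10.6 and 9.51 CPM in sinusoidal cells. *Lyve1* did not pass the edgeR test against sinusoidal cells (-2.11, SE 0.74, adjusted p = 0.22), while DESeq2 called it (-2.92, SE 0.82, adjusted p = 0.0068). The sinusoidal level was called higher for 5 receptors, where 0.284% of genes were called higher: *Msr1* (6.66, SE 0.97), *Scarb1* (5.75, SE 0.98), *Fcgr2b* (3.92, SE 0.82), *Clec4g* (3.52, SE 0.57) and *Cd36* (3.49, SE 0.67), with adjusted p between 0.0049 and 0.039 in edgeR's quasi-likelihood fit, Benjamini-Hochberg adjusted. In e4 the male pool had 337 CPM of *Fcgr2b* and 414 CPM of *Clec4g* and the female pool 20.7 and 99.1 CPM. Beside this, the sinusoidal marker list summed to 1477 and 148 CPM in these e4 pools and the B cell list to 607 and 29.3 CPM, with no gene of the former at 0, and their part in the result was not tested. The *Fcgr2b* call was lost with the replicate block (adjusted p = 0.054). With e7 among the sinusoidal cells the calls of *Fcgr2b* (0.11) and *Cd36* (0.071) were lost. Without the female e4 pool none of these calls remained, without the male e4 pool 6 receptors were called, and without the male or female sinusoidal pool 2 and 1 were.

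Within the Kupffer clusters *Marco* and *Scarb1* differed between pools. *Marco* in i1 was at 545 CPM over 108 male cells and at 1029 CPM over only 9 female cells. In i3 it was at 65.0 CPM over 10 male cells but 883 CPM over 99 female cells. *Scarb1* in i3 was at 6.57 and 524 CPM. Any count of *Marco* was found in 47.2% of male and 97.8% of female Kupffer cells. *Stab2* ranged from 255 and 860 CPM in i1 to 342 and 368 CPM in i3, with 487 and 404 CPM in the female cells of i6 and i7, and *Mrc1* was even, from 657 to 1012 CPM over i1 and i3. The 18 cells the authors name sKC, 17 of them male, had 118 CPM of *Marco*, 572 CPM of *Mrc1* and 257 CPM of *Stab2*. In the cycling cells, named Cyc, *Marco* was at 480 CPM over 5 male and 1707 CPM over 19 female cells.

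The monocyte and B cell clusters held less *Mrc1*, *Msr1*, *Stab2* and *Marco* than the Kupffer pools and more *Fcgr2b*, and *Stab1* was higher in the former and lower in the latter than in either pool. The Kupffer marker list summed to 11294 CPM in i2, with no gene at 0, and the list of other myeloid genes to 3209 CPM, against 444 and 29.3 CPM in i5, and the part of Kupffer cells or their RNA in the i2 values was not tested. The myeloid cluster i2, in which 56 of 65 cells are named monocytes, was large enough in the male pool only, and the B cell cluster i5 held male cells only, so a single pool stood for each and was assumed to vary like the other groups. Cluster i2 had 210 CPM of *Fcgr2b*, 223 of *Stab1*, 224 of *Mrc1*, 178 of *Msr1*, 71.0 of *Stab2* and 18.9 of *Marco*. None of the 10 receptors was called between Kupffer cells and i2 by edgeR, where 0% of genes were called and 917 had an unadjusted p under 0.05, and DESeq2 called none of the 10. Of the receptors, 5 had an unadjusted p under 0.05. Against i5, 3 receptors were called, where 0.605% of genes were: *Msr1* (7.25, SE 1.34, adjusted p = 0.014) and *Mrc1* (5.65, SE 1.005, adjusted p = 0.010) were higher in Kupffer cells and *Fcgr2b* fell by 4.35 (SE 0.90, adjusted p = 0.027, edgeR quasi-likelihood, Benjamini-Hochberg adjusted), from 264 CPM in i5. *Fcgr2b* lost its call without the male (adjusted p = 0.16) or female (0.17) Kupffer pool, with the replicate block (0.076), and with cluster i4 added to the Kupffer cells (-2.26, adjusted p = 0.33). It was found with at least 20 counts in 29.8% of B cells and 29.8% of monocytes (interval 18.4 to 43.4 for each), above both Kupffer pools.

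**Figure D5:**
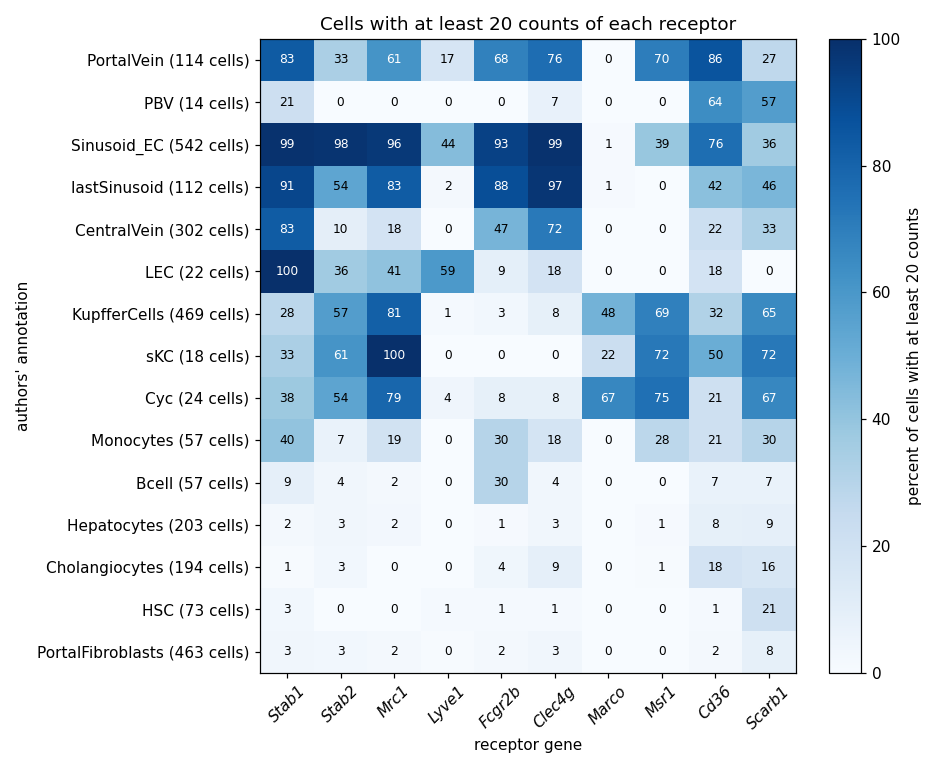
Percentage of cells with at least 20 counts of each receptor (columns) in the cell types named by the authors (rows, with their number of cells over both pools), from pale at 0 to dark at 100. *Clec4g* and *Stab1* are found in nearly all cells of the 2 sinusoidal types, *Marco* in 66.7% of Cyc but 0.923% of Sinusoid_EC cells, and *Scarb1* and *Cd36* remain in the 14 PBV cells.

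Across the 4 cell classes the receptors were genes of the endothelial and immune cells. Endothelial cells were higher than the mean of the other classes for 8 receptors, all but *Marco* and *Scarb1*, where 5.33% of 24046 genes were called higher, with log2 differences from 3.76 for *Msr1* (SE 0.37) to 6.04 for *Lyve1* (SE 0.75) and adjusted p between 0.00023 and 0.014 in edgeR's quasi-likelihood fit, Benjamini-Hochberg adjusted. Without the male endothelial pool the *Clec4g* call was lost (adjusted p = 0.052). Immune cells were higher for 5, where 7.92% of genes were called higher: *Marco* (8.12, SE 1.39, adjusted p = 0.0074), *Msr1* (5.02, SE 0.38, adjusted p = 0.00027), *Mrc1* (4.07, SE 0.53, adjusted p = 0.0023), *Scarb1* (2.13, SE 0.42, adjusted p = 0.013) and *Cd36* (1.43, SE 0.38, adjusted p = 0.043). *Scarb1* lost its call without the female immune pool (adjusted p = 0.20), and *Cd36* without any one endothelial, immune or mesenchymal pool (0.076 to 0.21). *Mrc1*, *Msr1* and *Cd36* were called in both classes.

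Mesenchymal cells were lower for 6 receptors, where 2.33% of genes were called lower, from *Scarb1* (fell by 2.16, SE 0.52) to *Msr1* (fell by 6.28, SE 0.61). *Scarb1* was at 53.7 and 50.7 CPM in the male and female mesenchymal pools, and its call was lost without either endothelial or mesenchymal pool or without the female parenchymal pool (adjusted p from 0.056 to 0.20). *Stab2* lost its call without the male (0.096) or female (0.052) mesenchymal pool. Parenchymal cells, the hepatocytes and cholangiocytes, were lower for *Stab1*, *Mrc1* and *Msr1*, where 4.05% of genes were called lower in edgeR's quasi-likelihood fit, Benjamini-Hochberg adjusted. *Mrc1* and *Msr1* lost their calls without the male parenchymal pool (adjusted p = 0.096 and 0.063), and *Msr1* also with thinning (-1.36, adjusted p = 0.13) and with sums per plate (-1.86, adjusted p = 0.16). The female parenchymal pool was only 39 cells with a median of 88932 counts, and it held 325 CPM of *Clec4g* and 115 CPM of *Fcgr2b* against 25.7 and 10.7 CPM in the male pool. The endothelial marker list summed to 325 CPM in this female pool and 165 CPM in the male one. The part of endothelial RNA in these values was not tested. *Scarb1*, known for uptake of HDL cholesterol by hepatocytes, was at 74.6 and 178 CPM in the male and female parenchymal pools.

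The wider machinery of uptake was read from lists of related genes. Of 13 other scavenger receptors tested, 1 was lower in sinusoidal than in Kupffer cells, the sort antigen *Cd68* (11.98 and 17.6 against 1415 and 1253 CPM), and none was higher, where 0.776% of all genes were called lower. Of 16 other endocytic lectins 2 were lower, *Clec4a1* (log2 difference -7.24, SE 1.62) and *Clec7a*, the receptor for fungal glucan (-7.12, SE 1.63), and of 6 other Fc receptor genes the activating receptors *Fcgr1* (-7.45, SE 1.94) and *Fcgr3* (-7.37, SE 1.84). Thus *Fcgr2b* was the only one of the 7 Fc receptor genes tested to be called higher in sinusoidal cells. Of 8 receptors for dying cells 3 were lower, *Timd4* (-7.78, SE 1.85), *Itgb5* (-6.34, SE 1.64) and *Axl* (-5.25, SE 0.95), with adjusted p between 0.0034 and 0.047 for these and the lectins and Fc receptors in edgeR's quasi-likelihood fit, Benjamini-Hochberg adjusted. The list medians were -0.19 for scavenger receptors, -3.24 for lectins, -5.50 for Fc receptors and -2.72 for receptors of dying cells, against 0.12 over all genes.

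None of 21 genes of clathrin uptake (median 0.00, from -0.90 to 1.76) and none of 11 of the LDL receptor family (median -0.21, from -6.92 to 3.16) was called between sinusoidal and Kupffer cells, while the share of all genes called was 2.69%. The lowest of these was *Lrp1*, named after its values were seen, at 9.98 and 12.5 CPM in sinusoidal against 920 and 1404 CPM in Kupffer cells (adjusted p = 0.083, edgeR). Among 28 lysosomal genes 7 were lower and 1 was higher in sinusoidal cells, with a median of -1.71. The protease genes *Ctsc* (9.33 and 22.4 against 2341 and 2447 CPM), *Ctsh* (34.5 and 81.7 against 1371 and 1202 CPM) and *Ctsa* (298 and 442 against 2358 and 2657 CPM) were lower. The other 4 genes called lower, named after their values were seen, were *Ctsb*, *Ctsd*, *Ctsz* and *Lgmn*, with log2 differences between -2.52 and -1.70. *Hyal2*, a hyaluronidase, was the one higher, at 567 and 674 against 31.6 and 98.2 CPM, a log2 difference of 3.07 (SE 0.72, adjusted p = 0.024, edgeR quasi-likelihood, Benjamini-Hochberg adjusted).

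Over the 50 sums of cluster and pool with at least 5 cells in all classes, each receptor was compared with 13162 other genes by Pearson's r of log2(CPM + 1), as a description, since the sums share plates, pools and the clustering. *Stab1* and *Mrc1* were closest to *Cdh5* (0.95 and 0.96), the VE-cadherin gene known from endothelium and also from Kupffer cells, *Stab2* to *Dnase1l3* (0.92) and then to *Mrc1* (0.92), and *Lyve1* to *Cldn5* (0.87) and *Dll4* (0.85). *Clec4g* and *Fcgr2b* both had *Gm16553* first (0.98 and 0.92), the antisense gene over the *Clec4g* exons, then *Ptprb* (0.94) for the former and *Gpihbp1* (0.90) for the latter. *Marco* was closest to the myeloid genes *Fpr1* (0.96), *Hk3* (0.96) and *Treml4* (0.95), *Msr1* to *Cd84* (0.87), *Cd36* to *Adipor1* (0.86), and *Scarb1* to *Tfec* at only 0.70. Between receptors the highest values were those of *Stab2* and *Mrc1* (0.92), *Stab1* and *Mrc1* (0.90) and *Fcgr2b* and *Clec4g* (0.90), and the lowest was that of *Fcgr2b* and *Marco* (0.094).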

How the data were processed

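Smart-seq2 libraries of single mouse liver cells were sequenced with single reads and no strand information. The authors aligned the reads to GRCm38 (mm10) and deposited raw counts per gene. Per the submitters' processing notes, Bowtie, Bowtie2, Subread's featureCounts and Seurat were used. The study's methods name the Seurat version, and versions of the other tools are not given in the sources used here. The authors had removed low-quality cells, putative doublets by gene number and cells with clear contamination from another cell type, and no further doublet removal was done here. The 92 ERCC spike-ins entered neither totals nor tests.

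Counts were summed per cell group and pool (at least 5 cells) and tested with edgeR 4.0.16 (TMM, filterByExpr, quasi-likelihood, 2-sided) in R 4.3.3, with Benjamini-Hochberg adjustment over all genes tested. CPM is the summed count scaled by the total of the sum, and CPM per kb divides it by merged exon length. Clusters, cell types and sexes came from the deposited metadata. Shares of cells have exact Clopper-Pearson intervals. DESeq2 1.42.0, no filter, thinning to 50000 counts, other minimums, sums per plate or cluster, within-plate fits, changed groups, a replicate block and omission of each pool were tried. The code was tested on simulated data, where the fit missed nearly all 4-fold and most 16-fold changes, so a gene that was not called is not shown to be unchanged.

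The receptors and gene lists were chosen with earlier results of these data known. All 10 receptors are named. Of each list up to 4 called genes are named, those with the largest log2 difference that are detected in at least 50% of the cells of either side, and for likeness the genes with the highest r among those of at least 50 CPM in a sum.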

Additional observations from a re-analysis of the deposited data

Results flagged for a closer look

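For 8 receptor values, out of 60 in the 6 contrasts that had both pools on each side, the male and the female pool moved in opposite directions. All are log2 ratios of CPM + 1, the difference between the pools was not tested, and none of these values was called with the settings of the report. With no filter on low counts *Marco* was called against e2 (4.35, adjusted p = 0.0093, edgeR) and e4 (4.92, adjusted p = 0.012, edgeR). Sex, plate and mice cannot be told apart in these pools.

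*Marco* was involved 3 times. Its sinusoidal level over that of e2 was -0.15 in the male and 3.54 in the female pool, over e4 -0.21 and 3.54, and over e7 -3.07 and 3.54. The female sinusoidal level was 10.6 CPM against 0 CPM in the 3 female clusters, and the male e7 level was 10.8 CPM. In the female sinusoidal cells the Kupffer marker list was at 1087 CPM, against 489 CPM in male cells, and the male and female e7 pools had 637 and 73.9 CPM of it. The part of Kupffer RNA in the *Marco* values was not tested.

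*Scarb1* gave 0.47 and -0.48 for sinusoidal cells over e2, -0.59 and 0.29 over e1, and 0.17 and -0.011 for e5 over e6. *Stab1* gave -0.056 and 1.10 for sinusoidal cells over e4, whose pools held 9 and 13 cells. *Fcgr2b* gave 1.40 and -0.14 for e5 over e6, from 2801 and 1497 CPM in e5 and 1063 and 1650 CPM in e6.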

How the results depend on the processing

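With 2 pools per group, the spread behind every test rests on few values, and a group with a single remaining pool was assumed to vary like the others. The settings also differed in how many of all genes they called. Between sinusoidal and Kupffer cells the settings of the report called 425 genes higher and 172 lower of 22162. DESeq2 called 1133 and 796 of 31588, and sums per cluster called 1381 and 1374 of 23300. The number of the 10 receptors called between sinusoidal and Kupffer cells was 5, and 4 to 8 under the alternatives: 4 without any one pool, 6 with DESeq2 and 8 with sums per cluster, where *Cd36* (1.90) and *Msr1* (-2.56) passed too. *Marco* was called in 8 of 17 alternatives, with adjusted p over all of them between 7.0e-09 (no filter) and 0.39, while *Stab1*, *Lyve1*, *Fcgr2b* and *Clec4g* kept their calls in all 17.

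Of all genes, those called lower in mesenchymal cells went from 561 of 24046 to 1181 of 34614 with no filter and 666 of 15916 with sums per plate. In parenchymal cells they went from 974 of 24046 to 2596 of 34614 with DESeq2 and 1856 with no filter. They were 1961 of 15916 with sums per plate and 993 of 24046 with the replicate block. Counts of receptors called that moved by over 1.5 times were the following. For lower mesenchymal levels 6 became 10 with no filter and 10 with sums per plate. For parenchymal cells 3 became 5 with DESeq2, 6 with no filter, 5 with sums per plate and 5 with the replicate block. For sinusoidal cells over e2, 0 became 1 with DESeq2, with thinning and with at least 10 cells per sum, 2 with no filter and 3 with sums per plate, with *Stab2* called in 5 of 11 alternatives. Over e7, 1 became 3 with DESeq2, no filter and thinning and 5 with sums per plate. Over e4, 5 became 8 with no filter, 1 with sums per plate and 3 with e7 among the sinusoidal cells. For Kupffer cells over i2, 0 became 1 with no filter and with at least 10 cells per sum. Over i5, 3 became 6 with DESeq2 and with no filter, and 5 with thinning and with sums per plate. The counts without any one pool ranged from 3 to 6 for the immune class, from 1 to 4 for the parenchymal class, and from 1 to 3, 0 to 1 and 0 to 6 against e1, e7 and e4. Of all genes, 1 was called higher and 0 lower over e2 in the report. With DESeq2 this became 195 and 133, with no filter 52 and 26, and with sums per plate 596 and 514. Thinning gave 7 and 13, and at least 10 cells per sum 4 and 0. Over e7, 5 and 1 became 965 and 135 with DESeq2 and 27 and 21 with no filter. Thinning gave 13 and 16 there and sums per plate 974 and 463. Over e4, 63 and 29 became 325 and 157 with no filter. The cause of these shifts was not tested.

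The pool number, which stands for sex in every group and thereby for plates that some groups share, was also fitted as a replicate block. The fits of the report leave it out. The deviations of same-sex pools correlated by 0.03 to 0.16 in the fits of classes and groups and by -0.02 to 0.10 among endothelial clusters. With the block 8, 5, 7 and 5 receptors were called in the endothelial, immune, mesenchymal and parenchymal classes, 5 between sinusoidal and Kupffer cells, 0, 3, 1 and 4 against e2, e1, e7 and e4, 0 and 2 against i2 and i5, and 2 between e5 and e6. The block ended the calls of *Mrc1* against e1 (adjusted p = 0.11), *Fcgr2b* against e4 (0.054) and *Fcgr2b* over i5 (0.076), added those of *Marco* in the mesenchymal class (0.013) and of *Lyve1* (0.041) and *Stab2* (0.029) in the parenchymal class, and changed no other call (edgeR).

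Log2 differences that changed sign were all of receptors not called. With sums per plate *Marco* was 1.27 in the endothelial class and 1.19 against e7, *Fcgr2b* 0.64 in the immune class, *Scarb1* 0.46 against e2 and *Stab1* 0.39 for Kupffer cells over i2. With thinning *Lyve1* was -0.11 in the immune class, *Cd36* 0.017 in the parenchymal class, *Scarb1* 0.016 against e2 and *Marco* 0.82 against e7, where the block gave 0.70. With DESeq2 *Stab1* was -0.29 against e4 and *Scarb1* 0.10 between e5 and e6. With the Kupffer cells of few endothelial counts *Clec4g* was -1.23 over i2 and -0.75 over i5. Without any one pool *Lyve1* (-0.40 to 1.04) and *Fcgr2b* (-1.50 to 0.41) in the immune class, and *Clec4g* (-2.90 to 0.54), *Marco* (-4.79 to 1.003) and *Cd36* (-0.90 to 0.43) in the parenchymal class spanned 0. So did *Lyve1* (-0.36 to 1.44) and *Scarb1* (-0.49 to 0.54) against e2, *Scarb1* against e1 (-0.57 to 0.14) and e7 (-0.065 to 0.22), *Marco* against e7 (-4.08 to 10.3), *Stab1* against e4 (-0.24 to 1.32), *Cd36* for Kupffer cells over i2 (-0.022 to 1.10) and *Scarb1* between e5 and e6 (-0.20 to 0.15).

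Over all genes, edgeR and DESeq2 differed in the number and balance of calls. The endothelial class had 1281 genes higher and 711 lower with edgeR and 1979 and 2514 with DESeq2, the immune class 1904 and 1263 against 2703 and 3049, the mesenchymal class 2277 and 561 against 2757 and 1574, and the parenchymal class 2013 and 974 against 3035 and 2596.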

Other observations

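Cluster i4 of the immune class was kept out of the Kupffer group. It held 24 cells named Cyc and 24 named Cont by the authors, from 11 male and 37 female cells in all. The Kupffer marker list summed to 18320 and 25780 CPM in its male and female cells and the general endothelial list to 3985 and 3065 CPM, against 274 and 245 CPM in the Kupffer group. Beside this, *Clec4g* was at 537 and 855 CPM, *Fcgr2b* at 463 and 421 CPM and *Lyve1* at 110.2 and 104.4 CPM. The 26 cells named Cont in all had 1719 CPM of *Clec4g*, 1174 CPM of *Stab2* and 66.0 CPM of *Marco*, while the 24 Cyc cells had 87.5, 366 and 1365 CPM. The receptors known from each cell type thus stood side by side in the Cont cells, and adding i4 to the Kupffer group left 5 receptors called against sinusoidal cells, while against i5 the *Fcgr2b* call was lost and its log2 difference moved from -4.35 to -2.26.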
